A study of Mus musculus with 15 samples.

Results

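This comparison asked which genes of irradiated bone marrow mesenchymal stem cells (BM-MSCs) differed when the nanoclay Laponite was present in a gel that held no IL-12. It set 3 Gel/Laponite libraries against 3 Gel libraries, which are 6 of the 15 libraries in the series. The libraries were taken by their labels. The genes described are mainly those that differed between the 2 groups, with some that did not pass the test. BM-MSCs are the stromal cells of the marrow that make bone, fat and the niche of blood stem cells. These were primary cells of C57BL/6 mice, bought from a company and used at passages 3 to 5. Every culture had received 5 Gy of radiation and was then kept for 48 h, with a biomaterial in all groups but IR-Con. Gel was RGD-Alg, an alginate carrying the RGD peptide that integrins bind, crosslinked with calcium. Gel/Laponite was the same gel with Laponite, a synthetic layered silicate that holds magnesium, sodium and lithium. The cytokine interleukin-12 was in the matching gels, named Gel/IL-12 when Laponite was absent and Gel/Laponite@IL-12 when it was present, and IR-Con had no gel. Each of the 5 groups had 3 libraries. The labels give the cells 1 source and do not say that the libraries of a group came from separate cultures, so the p-values measure the spread between these libraries, which may be technical.

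Several of the genes that moved belong to well-known systems. In low oxygen, or when the prolyl hydroxylases that mark it for destruction are slowed, the transcription factor HIF-1 binds the hypoxia response element and turns on genes for glycolysis, mitophagy and collagen hydroxylation. Marrow stroma lives at low oxygen, and mesenchymal cells rely strongly on glycolysis. Bone morphogenetic proteins (BMPs) signal through Smad1 and Smad5, switch on the Id genes and drive mesenchymal cells toward bone, and secreted antagonists such as gremlin limit them. The aryl hydrocarbon receptor binds planar ligands and turns on cytochrome P450 genes of the Cyp1 family.

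Total counts were 15202745 to 16524896 in Gel and 15789122 to 17477185 in Gel/Laponite, and 15188 of 54532 genes passed the filter on low counts. The 4 gel groups varied little between libraries, with a coefficient of variation of 3.52% to 4.05%, against 16.9% in IR-Con, and the model was fitted to the 12 gel libraries only. All 18 mesenchymal markers listed were measured, and their summed level was 4037 to 4083 CPM (the unit of level here, counts relative to the scaled total of their library) in Gel and 4053 to 4133 CPM in Gel/Laponite. Of 16 macrophage and monocyte markers, 11 had too few counts to test, C1qa and Tyrobp had none, and the 5 tested summed to 59 to 62.6 CPM in Gel and 61.5 to 64.3 CPM in Gel/Laponite. Of 21 markers of other blood cells only Cd34 was tested, and 6 had no counts in the 6 libraries, among them Cd3e, Cd3g, Ms4a1, Mpo and Pf4. The 6 endothelial and pericyte markers tested, of 13, summed to 10.2 to 12.3 CPM in Gel and 8.98 to 12.9 CPM in Gel/Laponite. The long noncoding RNA Malat1 varied widely between libraries of the same group. It took 0.103%, 0.0666% and 0.182% of the counts in Gel and 0.0681%, 0.0568% and 0.0977% in Gel/Laponite. These ranges overlapped, and Malat1 did not pass the test (log2 fold change -0.65 ± 0.38, adjusted p = 0.458). In bulk RNA, fewer cells of a type and less RNA per cell cannot be told apart.

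With Laponite and no IL-12, 819 genes differed from Gel at an adjusted p under 0.05 (differentially expressed genes, DEGs), which is 5.39% of the genes tested. Of these, 467 were higher (3.07% of the genes tested) and 352 were lower (2.32%). The changes were small, with a median size of 0.17 on the log2 scale, or 1.12-fold. Changes of more than 1.5-fold were seen in 40 DEGs (15 higher and 25 lower) and of more than 2-fold in 13 (4 higher and 9 lower). The Gel and Gel/Laponite libraries did not overlap for 795 of the 819 DEGs, and over all genes tested they did not overlap for 3226 (21.2%), with Gel/Laponite above Gel for 11.7% and below it for 9.54%. The plot of fold change against level places Cyp1a1 apart at the bottom and the hypoxia genes Bnip3 and Higd1a at the top among well expressed genes.

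**Figure D1:**
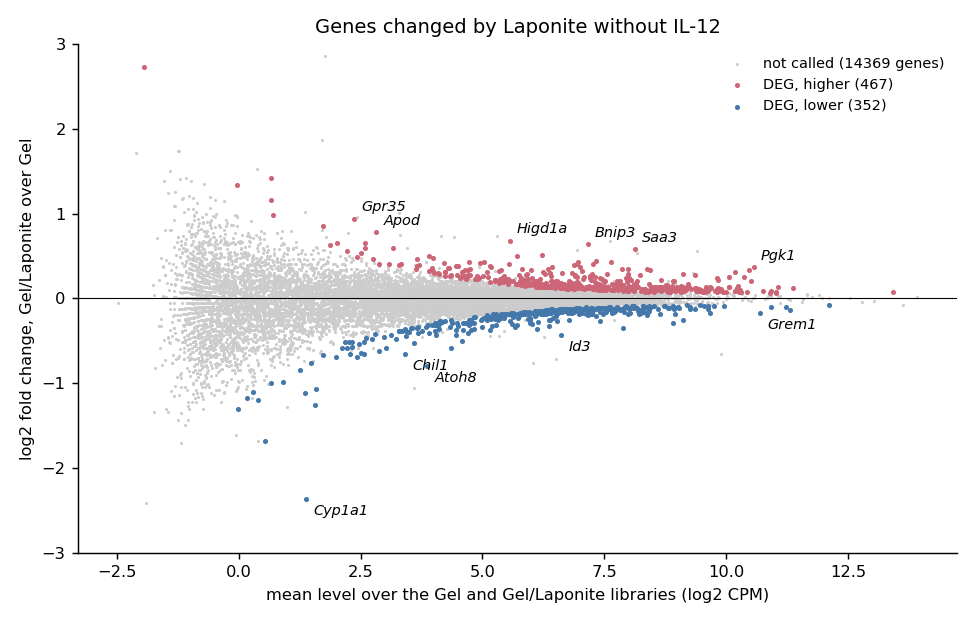
Each point is 1 of the 15188 genes tested, less 3 whose log2 fold change lies beyond 3. The x axis is the mean level over the 6 libraries (log2 CPM), the y axis is the log2 fold change of Gel/Laponite over Gel, and coloured points are the 467 DEGs that were higher and the 352 that were lower. Among named genes Cyp1a1 is lowest at -2.36, while Bnip3 at 0.64 and Pgk1 at 0.37 stand above most genes of their level.

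Transcript length and base composition moved with the comparison. The median log2 fold change of genes fell from 0.032 in the quartile with the shortest transcripts to -0.023 in the quartile with the longest, and from 0.029 to -0.029 between the quartiles of lowest and highest GC content. Their part in the calls was measured by a fit that corrects for both. It called 513 genes higher (3.38%) and 173 lower (1.14%), so that 74.8% of its calls were higher against 57% without the correction, and it kept 398 of the 467 higher and 157 of the 352 lower DEGs. Without Gel replicate 3 the count was 522. With the 3 IR-Con libraries in the fit it was 51, with 41 higher (0.263% of the 15590 genes tested there) and 10 lower (0.0641%). In the lists described next, that fit called 12 of 38 hypoxia targets, 8 of 26 glycolysis genes and 3 of 36 acute phase genes higher. It called 2 of 32 BMP genes lower and 0 of 36 ribosomal proteins in either direction.

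Genes of the hypoxia response rose together. Their list, like the other lists here, was chosen with earlier results of these data known. Of 38 hypoxia targets outside glycolysis, all of which were tested, 22 were higher in Gel/Laponite and 0 were lower, and 16 did not pass the test. Their median log2 fold change was 0.20, against 0.00 over all genes, where 3.07% were called higher. The count was 22 with the length and GC correction, and 15 to 23 when any library of the comparison was left out, the lowest without Gel replicate 2.

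Bnip3, a BH3 protein of the outer mitochondrial membrane that drives mitophagy (chr7:138890836-138909519, minus strand, GRCm38), was at 108, 114 and 113 CPM in Gel and at 172, 174 and 176 CPM in Gel/Laponite. All 3 libraries with Laponite lay above all 3 without it. The log2 fold change was 0.64 ± 0.034 (SE, adjusted p = 1.07e-28), a 1.56-fold difference. Without a gel, in IR-Con, Bnip3 averaged 69.6 ± 13.6 CPM (SD, n = 3). Only 78.1% of the 50-base windows of Bnip3 occur in no other annotated gene, so part of its reads could have been shared with similar sequences. Higd1a, an inner mitochondrial membrane protein induced by hypoxia (chr9:121848563-121858362, minus strand), was at 36, 34.9 and 37.7 CPM in Gel and at 57.8, 60.5 and 55.8 CPM in Gel/Laponite. The groups were again fully separate. Its log2 fold change of 0.68 ± 0.056 (adjusted p = 1.37e-17) was the highest of the 22.

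The sequences around the starts of the leading hypoxia and glycolysis genes are shown because the data bear on them as a group that moved together. They are RefSeq promoter windows on GRCm38.p6, 250 bases before to 50 bases after the start, on the gene's strand from 5′ to 3′. The core of the hypoxia response element was searched here as ACGTG. It is in capitals wherever it or its reverse complement CACGT occurs, and CACGTG holds both strands at once. Bnip3 lies at chr7:138909457-138909756 on the minus strand, Higd1a at chr9:121857747-121858046 on the minus strand, Pgk1 at chrX:106186850-106187149 on the plus strand and Ldha at chr7:46845554-46845853 on the plus strand.
Bnip3: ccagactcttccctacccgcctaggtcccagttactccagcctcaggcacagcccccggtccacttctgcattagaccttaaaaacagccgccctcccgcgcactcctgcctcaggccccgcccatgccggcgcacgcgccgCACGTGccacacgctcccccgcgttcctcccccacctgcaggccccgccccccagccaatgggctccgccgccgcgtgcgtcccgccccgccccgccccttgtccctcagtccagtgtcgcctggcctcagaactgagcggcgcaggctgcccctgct
Higd1a: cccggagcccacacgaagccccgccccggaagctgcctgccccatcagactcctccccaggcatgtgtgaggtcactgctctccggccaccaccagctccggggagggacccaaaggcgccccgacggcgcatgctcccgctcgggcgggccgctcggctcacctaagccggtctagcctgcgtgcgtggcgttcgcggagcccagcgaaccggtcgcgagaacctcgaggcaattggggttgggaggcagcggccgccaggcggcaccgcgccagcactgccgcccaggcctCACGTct
Pgk1: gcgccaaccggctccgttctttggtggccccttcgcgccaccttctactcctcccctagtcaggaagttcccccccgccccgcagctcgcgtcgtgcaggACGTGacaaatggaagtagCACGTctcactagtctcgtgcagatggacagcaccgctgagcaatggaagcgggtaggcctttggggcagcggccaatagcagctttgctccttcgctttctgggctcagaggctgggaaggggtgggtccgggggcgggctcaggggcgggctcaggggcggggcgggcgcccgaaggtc
Ldha: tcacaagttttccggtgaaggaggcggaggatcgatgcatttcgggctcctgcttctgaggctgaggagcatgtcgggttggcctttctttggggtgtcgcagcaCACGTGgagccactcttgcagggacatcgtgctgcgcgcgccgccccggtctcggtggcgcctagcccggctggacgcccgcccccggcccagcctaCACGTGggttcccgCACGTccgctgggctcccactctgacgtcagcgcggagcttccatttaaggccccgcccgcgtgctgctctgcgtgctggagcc
Bnip3 carries the core once on each strand in a CACGTG, with its first bases at -108 and -107 relative to the start. Higd1a has 1 match, at 44 bases after the start and on the reverse strand. Pgk1 has matches at -150 and -131, and Ldha has 5, the nearest to the start at -34, in that of its 2 windows with more matches. Of the 22 hypoxia DEGs, 16 had a promoter in the table and 14 of these (87.5%) held the core in at least 1 window. Among all members tested that had a promoter it was 22 of 27 (81.5%), so uncalled members held the core as well. Among glycolysis DEGs it was 10 of 18 (55.6%), below the 16 of 25 (64%) of all glycolysis members, and among all genes tested that had a promoter it was 3028 of 10520 (28.8%). Of all 32851 RefSeq windows 19.6% held it. GCGTG, searched as the core of the aryl hydrocarbon receptor, differs from ACGTG only in its first base, so it is not an unrelated motif. It was in the same share of hypoxia DEGs, 14 of 16, and in 55.1% of all genes tested that had a promoter. A match is a string of letters in this window and does not show that a factor was bound there.

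The remaining hypoxia genes followed the same direction with smaller changes. Ndrg1, a hypoxia-induced gene of differentiation and stress, was at 170, 165 and 174 CPM in Gel and 225, 236 and 229 CPM in Gel/Laponite (log2 fold change 0.43 ± 0.032, adjusted p = 3.7e-20). Ero1l, the oxidase that forms disulfide bonds in the endoplasmic reticulum, was at 133, 135 and 139 CPM and at 182, 187 and 187 CPM (0.44 ± 0.033, adjusted p = 3.7e-20). Fam162a, a mitochondrial protein induced by HIF-1, was at 105, 106 and 107 CPM and at 147, 139 and 142 CPM (0.43 ± 0.036, adjusted p = 5.22e-17). None of these ranges overlapped. Egln1, a prolyl hydroxylase that is itself a HIF-1 target and marks HIF-1 for destruction, rose from 132, 140 and 127 CPM to 183, 172 and 174 CPM (0.40 ± 0.034, adjusted p = 6.02e-17). Pdk1, a mitochondrial kinase that inhibits pyruvate dehydrogenase, rose by 0.40 ± 0.035 on the log2 scale (adjusted p = 6.96e-16). Ndufa4l2, a HIF-1 target that lowers complex I activity, was at 65, 59.9 and 60.5 CPM and at 88.2, 93.6 and 83.7 CPM. Its log2 fold change was 0.51 ± 0.049 (adjusted p = 5.15e-11), and since its exons overlap those of Shmt2 on the other strand, reads of the 2 genes cannot be told apart unless the counting used strand, which is not given in the sources used here.

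Of the other members, the mitophagy receptor Bnip3l rose by 0.27 and the mitochondrial adenylate kinase Ak4 by 0.40. The collagen hydroxylases P4ha1 and Plod2 rose by 0.22 and 0.25. The clock repressor Bhlhe40 rose by 0.24 and the lipase inhibitor Angptl4 by 0.31. Their adjusted p lay between 4.9e-13 and 1.48e-07. Vegfa, the angiogenic growth factor, was at 328, 328 and 318 CPM in Gel and 345, 351 and 347 CPM in Gel/Laponite, without overlap. Its log2 fold change was 0.09 (adjusted p = 0.0223), and the call was lost without Gel replicate 2 (adjusted p = 0.0532), Gel replicate 3 (0.175) or Gel/Laponite replicate 2 (0.102). Hif1a, which encodes the regulated subunit of HIF-1, was at 417, 410 and 426 CPM and at 424, 446 and 447 CPM. The ranges overlapped and the difference of 0.07 did not pass the test (adjusted p = 0.136), although it did without Gel/Laponite replicate 1, where it was 0.09.

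Glycolysis moved in the same direction. Of 26 genes of glucose uptake, glycolysis, glycogen and lactate export, all tested, 18 were higher (69.2%, against 3.07% of all genes) and 0 were lower. Their median log2 fold change was 0.23. The count was 19 with the length and GC correction and 17 to 18 when any library of the comparison was left out. Pgk1, phosphoglycerate kinase, was at 1328, 1317 and 1316 CPM in Gel and at 1718, 1721 and 1696 CPM in Gel/Laponite. The 2 groups lay far apart relative to their spread, and the log2 fold change was 0.37 ± 0.02 (adjusted p = 1.07e-28), a 1.29-fold difference. Pgk1 has processed copies, and only 32% of its 50-base windows occur in no other gene. Ldha, lactate dehydrogenase A, rose from 1243, 1234 and 1263 CPM to 1593, 1586 and 1544 CPM (0.33 ± 0.02, adjusted p = 3.07e-25).

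The DEGs covered nearly every step from glucose to lactate. Slc2a1, the basal glucose transporter, rose from 133, 131 and 138 CPM to 164, 156 and 165 CPM (0.26 ± 0.033, adjusted p = 3.49e-09). Pfkl, the liver form of phosphofructokinase, rose from 309, 307 and 305 CPM to 406, 394 and 373 CPM (0.34 ± 0.027, adjusted p = 2.04e-18). Tpi1, triosephosphate isomerase, rose from 1026, 1030 and 1027 CPM to 1305, 1298 and 1248 CPM (0.31 ± 0.021, adjusted p = 2.53e-22). For each of these enzymes every Gel/Laponite library was above every Gel library. Aldolase A (Aldoa) rose by 0.25, Pgam1 by 0.28, enolase 1 (Eno1) by 0.22 and the pyruvate kinase Pkm by 0.12. The lactate exporter Slc16a3 rose by 0.34 and the glycogen branching enzyme Gbe1 by 0.35. Their adjusted p ran from 9.23e-18 for Aldoa to 0.000191 for Gbe1. Eno1 is another gene with many copies, since 27.8% of its windows occur in no other gene. The step left out was that of Gapdh, which did not pass the test (0.10, adjusted p = 0.826). Its level was low beside those of Tpi1 and Pgk1, at 38.1, 48.7 and 46 CPM in Gel and 55.3, 45.8 and 41.7 CPM in Gel/Laponite.

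**Figure D2:**
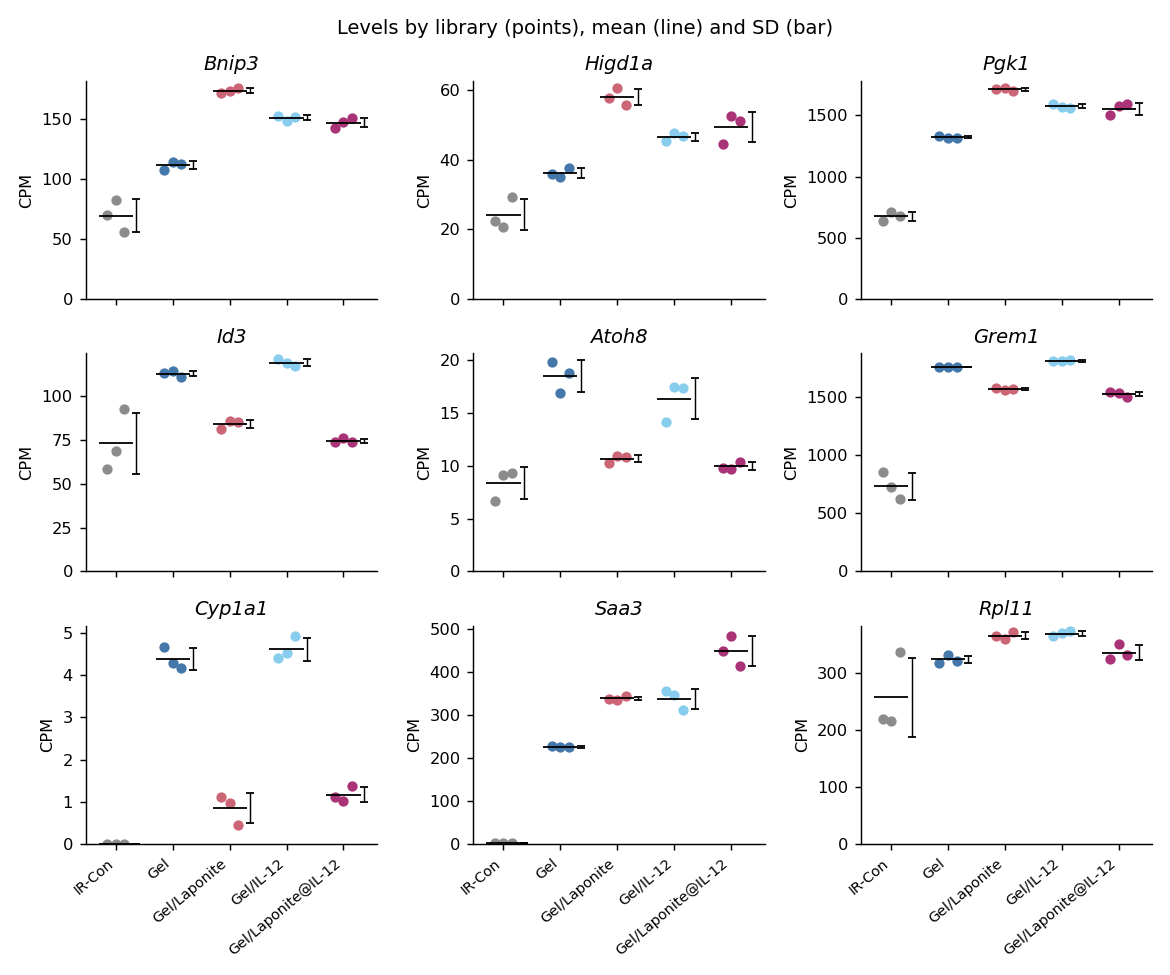
Points are the levels (CPM, y axis from 0) of 9 genes in each of the 15 libraries, by group on the x axis, with the group mean as a line and the SD as a bar. The Gel/Laponite libraries lie above the Gel libraries for Bnip3, Higd1a, Pgk1, Saa3 and Rpl11 and below them for Id3, Atoh8, Grem1 and Cyp1a1, and the last 4 are also low in Gel/Laponite@IL-12.

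Several targets of BMP signaling and the antagonist Grem1 were lower with Laponite. Of 35 BMP genes listed, 32 were tested, 6 were lower and 0 were higher, where 2.32% of all genes were called lower. The median of the list was -0.04, and 26 members did not pass the test. Among the 6 were Id1, Id2, Id3, Atoh8 and Grem1, and 6 to 7 were called when any library was left out. The ligands, receptors and Smads on the list did not pass the test.

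Id3, a helix-loop-helix inhibitor of differentiation and a direct BMP target (chr4:136143497-136145755, plus strand), was at 113, 114 and 111 CPM in Gel and 81.4, 85.8 and 84.9 CPM in Gel/Laponite. All libraries with Laponite were lower, with a log2 fold change of -0.43 ± 0.038 (adjusted p = 4.46e-16). Id1 was at 26.3, 25.8 and 23.7 CPM and at 18.8, 18.4 and 19.4 CPM (-0.43 ± 0.078, adjusted p = 3.6e-05). Id2 was at 33.1, 29.4 and 33.1 CPM and at 25.2, 24.5 and 25.5 CPM (-0.36 ± 0.07, adjusted p = 0.000166). Atoh8, another helix-loop-helix factor and BMP target (chr6:72206177-72235577, minus strand), showed a larger change, from 19.8, 16.9 and 18.8 CPM to 10.3, 10.9 and 10.8 CPM. It was 1.74-fold lower in Gel/Laponite (-0.80 ± 0.1, adjusted p = 1.39e-09). The secreted antagonist Grem1, which was among the abundant genes, fell as well, from 1755, 1750 and 1756 CPM to 1574, 1554 and 1564 CPM (-0.17 ± 0.019, adjusted p = 6.15e-12). In none of these genes did the groups overlap. Smad7, the inhibitory Smad, was at 30.1, 31.9 and 32.8 CPM and at 26.2, 29.2 and 26.9 CPM and did not pass the test (-0.21, adjusted p = 0.0627), although it did without Gel/Laponite replicate 2, at -0.26.

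The promoters of Id2 and Id3 are shown because the Id genes carry the BMP result. Both windows were searched for GGCGCC, a palindrome bound by Smad1 and Smad5, and for CAGAC or its reverse complement GTCTG, the site of Smad3 and Smad4. Capitals mark the motif found, which is GGCGCC in Id2 and CAGAC or GTCTG in Id3. Id2 lies at chr12:25096043-25096342 on the minus strand and Id3 at chr4:136143572-136143871 on the plus strand of GRCm38.p6, and the window is that of RefSeq as above.
Id2: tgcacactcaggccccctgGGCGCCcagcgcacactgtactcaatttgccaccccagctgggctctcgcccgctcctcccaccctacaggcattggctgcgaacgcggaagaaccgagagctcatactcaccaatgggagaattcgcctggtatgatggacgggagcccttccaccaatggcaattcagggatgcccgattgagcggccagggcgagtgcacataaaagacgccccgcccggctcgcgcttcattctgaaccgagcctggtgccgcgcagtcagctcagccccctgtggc
Id3: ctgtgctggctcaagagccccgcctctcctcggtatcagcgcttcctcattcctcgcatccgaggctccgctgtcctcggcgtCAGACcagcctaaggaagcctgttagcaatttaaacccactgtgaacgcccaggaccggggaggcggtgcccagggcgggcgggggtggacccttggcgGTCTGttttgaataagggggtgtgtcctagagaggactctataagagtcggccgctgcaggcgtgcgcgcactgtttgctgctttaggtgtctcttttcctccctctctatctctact
The Id2 window has 1 match of GGCGCC, at -231, and the Id3 window has 2 of CAGAC, at -167 and -68. The Id2 window has 0 matches of CAGAC on either strand, and the Id3 window has 0 of GGCGCC. Of the 6 BMP DEGs 4 had a promoter in the table, and 2 of these held GGCGCC and 2 held CAGAC. Among all genes tested that had a promoter, 24.1% held GGCGCC and 52.7% held CAGAC, and among the BMP members tested 36.4% and 40.9% did.

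Some bone genes were lower with Laponite. Of 26 osteogenic genes listed 17 were tested, 4 were lower (23.5%, against 2.32% of all genes), 1 was higher and 12 did not pass the test, with a median of 0.03. The higher gene was the abundant Sparc, at 0.06 (adjusted p = 0.0195). Its call was lost without Gel replicate 2, Gel replicate 3 or Gel/Laponite replicate 2. Alpl, the alkaline phosphatase of mineralizing cells, was at 17.5, 16.8 and 17 CPM in Gel and at 12.5, 12.7 and 13.6 CPM in Gel/Laponite (-0.41 ± 0.094, adjusted p = 0.00193). The osteoclast regulators RANKL (Tnfsf11) and osteoprotegerin (Tnfrsf11b) were also lower, by values of -0.69 and -0.66. Tnfsf11 was at 6.04, 4.5 and 4.3 CPM and at 3.04, 3.27 and 2.92 CPM, and its call was lost without Gel replicate 1 (adjusted p = 0.167). That of Tnfrsf11b was lost without Gel replicate 2 (adjusted p = 0.16) or Gel/Laponite replicate 2 (0.0617). Col1a1, the main collagen of bone, had a value of -0.08 (adjusted p = 0.00136), which became -0.00 with the length and GC correction (adjusted p = 0.944). Runx2, the master factor of bone cells, was at 69.4, 72.4 and 70.2 CPM and at 70.7, 65.9 and 65 CPM. Its ranges overlapped and it did not pass the test (adjusted p = 0.369). Dlk1, an inhibitor of fat cell formation, was at 264, 267 and 258 CPM and at 219, 205 and 200 CPM (-0.35 ± 0.031, adjusted p = 2.01e-15).

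The lowest fold change of a gene named here was that of Cyp1a1, the inducible P450 enzyme of the aryl hydrocarbon receptor (chr9:57687928-57703824, plus strand). It was at 4.67, 4.3 and 4.17 CPM in Gel and at 1.12, 0.976 and 0.444 CPM in Gel/Laponite, and it had no counts in the 3 IR-Con libraries. The fit gave a log2 fold change of -2.36 ± 0.25 (adjusted p = 2.1e-12), a 5.14-fold lower level. Cyp1b1, its more abundant relative, was at 525, 528 and 520 CPM and at 430, 423 and 444 CPM (-0.29 ± 0.024, adjusted p = 5.3e-17). These genes, and the list of 10 aryl hydrocarbon receptor genes, were chosen after their values were seen. Of the 7 that could be tested, only Cyp1a1 and Cyp1b1 passed the test. Tiparp and Nqo1, other targets of the receptor, and the receptor gene Ahr had values of -0.11, -0.17 and -0.13 with adjusted p of 0.123 to 0.129. The Cyp1a1 window (chr9:57697363-57697662, plus strand, GRCm38.p6) is shown with GCGTG, the core that the receptor binds, in capitals.
Cyp1a1: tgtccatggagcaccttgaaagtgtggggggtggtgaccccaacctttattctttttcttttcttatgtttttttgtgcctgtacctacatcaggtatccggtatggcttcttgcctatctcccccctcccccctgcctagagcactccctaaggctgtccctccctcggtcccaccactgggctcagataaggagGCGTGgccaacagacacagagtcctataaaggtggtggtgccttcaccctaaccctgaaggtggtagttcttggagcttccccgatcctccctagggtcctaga
It holds the core once, at -54, and 32.4% of all windows hold it on either strand.

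Some acute phase and inflammatory genes were higher with Laponite. Of 39 listed 36 were tested, 8 were higher (22.2%, against 3.07% of all genes), 2 were lower and 26 did not pass the test, with a median of 0.09. Saa3, an acute phase apolipoprotein (chr7:46711998-46715700, minus strand), was at 227, 224 and 224 CPM in Gel and at 336, 335 and 343 CPM in Gel/Laponite, and at 0.941 ± 0.278 CPM in IR-Con (SD, n = 3). The groups were fully separate, with a log2 fold change of 0.58 ± 0.064 (adjusted p = 0.000779). Complement C3 rose from 961, 975 and 988 CPM to 1161, 1157 and 1166 CPM (0.25 ± 0.02, adjusted p = 1.37e-17). The siderophore-binding lipocalin Lcn2 rose from 103, 108 and 111 CPM to 132, 129 and 132 CPM (0.28 ± 0.036, adjusted p = 5.12e-09). The neutrophil chemokines Cxcl5 and Cxcl1 rose by 0.39 and 0.23, the monocyte chemokine Ccl2 by 0.19, the metalloreductase Steap4 by 0.37 and ceruloplasmin (Cp) by 0.17. Their adjusted p lay between 4.7e-11 and 9.25e-05, and no range overlapped. Ptx3, a soluble pattern recognition protein, moved the other way, from 186, 185 and 184 CPM to 153, 156 and 153 CPM (-0.27 ± 0.032, adjusted p = 1.21e-10). Serpina3n, a protease inhibitor of the acute phase, was lower too (-0.34, adjusted p = 0.00444), but not without Gel replicate 2 (adjusted p = 0.0589) or Gel/Laponite replicate 2 (0.0579). Of 30 interferon genes 2 were higher (6.67%) and 0 lower. They were Bst2 and the class I light chain B2m, at 776, 769 and 769 CPM in Gel and 854, 863 and 836 CPM in Gel/Laponite (0.14 ± 0.022, adjusted p = 3.45e-06).

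Ribosomal protein genes shifted by a small and even amount. Of 36 tested 24 were higher (66.7%, against 3.07% of all genes) and 0 were lower, with a median log2 fold change of 0.11. Rpl11 was at 318, 331 and 321 CPM in Gel and at 364, 359 and 372 CPM in Gel/Laponite (0.17 ± 0.027, adjusted p = 3.45e-06). The groups did not overlap for Rpl11, nor in this direction for 30 of the 36 in all, against 11.7% of all genes. Rpl5 rose by 0.14, Rpl10 by 0.14 and Rplp2 by 0.16, and the translation factor Eef1a1 and the growth-related Tpt1 rose by 0.07 and 0.14. These are short, highly copied genes, and 40.8% to 69.3% of the windows of Eef1a1, Rpl10, Rpl5, Tpt1, Rpl11 and Rplp2 occur in no other gene. With the length and GC correction 22 were called higher, and 16 to 25 when any library of the comparison was left out, the lowest without Gel/Laponite replicate 1.

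**Figure D3:**
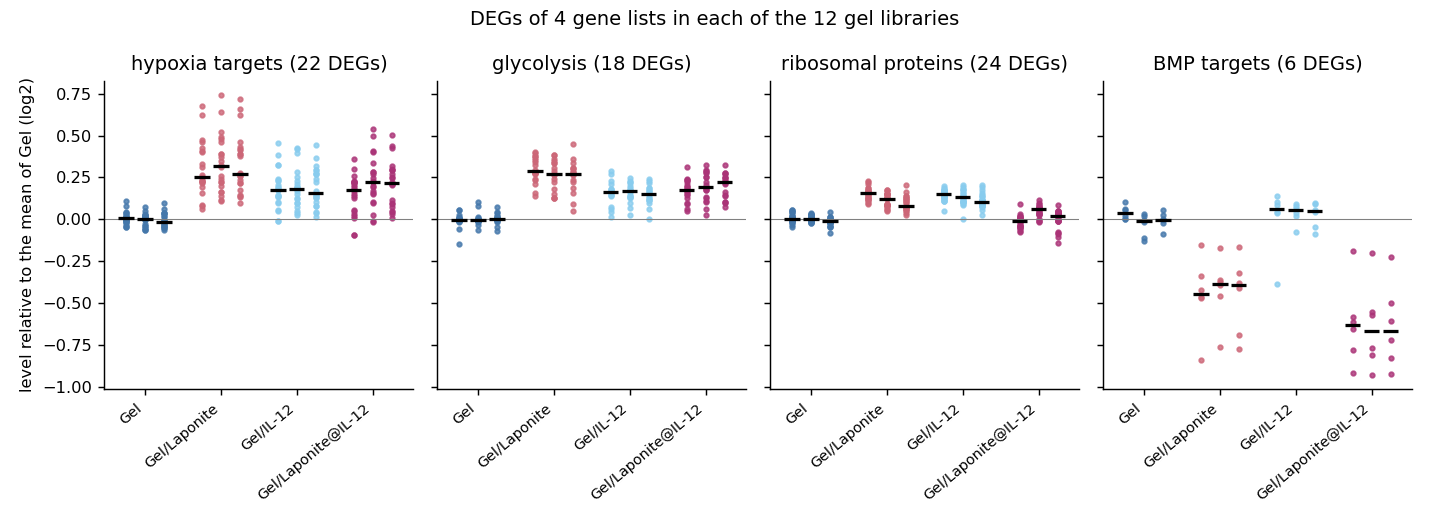
Each point is a DEG of the named list in 1 of the 12 gel libraries, by group on the x axis, and the y axis is its level relative to the mean of Gel (log2). Black bars are the median over the DEGs in that library, which lie at 0.25 to 0.32 in Gel/Laponite for hypoxia targets, 0.27 to 0.29 for glycolysis, 0.08 to 0.15 for ribosomal proteins and -0.45 to -0.39 for BMP targets. The DEGs were picked on the difference between Gel and Gel/Laponite, so their separation there is by choice.

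In the other lists at most 6 members were called without the length and GC correction. Their shares are to be read against 3.07% of all genes higher and 2.32% lower. Of 24 genes of TGF-beta signaling 1 was higher (4.17%) and 4 were lower (16.7%), against 1 lower with the length and GC correction. The higher gene was the type II receptor Tgfbr2, at 503, 496 and 503 CPM in Gel and 617, 610 and 617 CPM in Gel/Laponite (0.29 ± 0.023, adjusted p = 9.23e-18). Ltbp2, a microfibril protein, was at 577, 601 and 619 CPM and at 506, 507 and 503 CPM (-0.25 ± 0.024, adjusted p = 2.63e-14). Of 41 matrix genes 2 were higher (4.88%) and 4 were lower (9.76%). With the length and GC correction 6 were higher and 3 were lower, where 3.38% and 1.14% of all genes were. The proteoglycan versican (Vcan) had a value of -0.20 (adjusted p = 1.09e-08), the hyaluronan synthase Has2 of -0.43 (adjusted p = 0.000818) and the fibrillar collagen Col3a1 of 0.09 (adjusted p = 0.000564). Of 28 metallothionein and oxidative stress genes 5 were higher (17.9%) and 1 was lower (3.57%). Metallothionein 1 (Mt1), which binds zinc and copper, was at 223, 221 and 221 CPM and at 293, 285 and 274 CPM (0.35 ± 0.029, adjusted p = 1.37e-17), and heme oxygenase Hmox1 rose by 0.12 (adjusted p = 0.000656).

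Laponite contains magnesium, sodium and silicate, so genes of ion and phosphate transport were listed. Of 28 tested 1 was higher (3.57%) and 5 were lower (17.9%), among them the mechanosensitive channel Piezo1 at 262, 284 and 282 CPM in Gel and 240, 246 and 251 CPM in Gel/Laponite (-0.17, adjusted p = 8.8e-06). None of the 28 was called with the length and GC correction, where Piezo1 was at -0.08 (adjusted p = 0.0814). The same held for fatty acid synthase Fasn (-0.17, adjusted p = 1.01e-05, and -0.08 with the correction, adjusted p = 0.0967) and for the long actin-binding genes Flna and Myh9 (-0.10 each, and -0.02 each with the correction). Cnn1, calponin of contractile cells, kept its call (-0.29, adjusted p = 4.99e-06). Caveolar Cavin2 was higher (0.37 ± 0.036, adjusted p = 2.12e-14), as were 3 of 40 genes of lysosome and autophagy (7.5%), with 0 lower.

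Of niche factors, 27 were tested, 3 were higher (11.1%, against 3.07% of all genes) and 1 was lower (3.7%, against 2.32%). The chemokine Cxcl12, which retains blood stem cells in the marrow, was at 906, 904 and 912 CPM and at 977, 993 and 985 CPM (0.11 ± 0.021, adjusted p = 9.36e-05). Fgf2 was at 53.8, 54.9 and 51.8 CPM and at 41, 43.2 and 47.1 CPM (-0.30 ± 0.055, adjusted p = 7.07e-05). Of 40 DNA replication genes 0 were higher and 2 lower (5%), and of 35 genes of G2 and mitosis 0 were higher and 1 was lower (2.86%), close to the share over all genes. Of 28 p53 targets 3 were higher (10.7%) and 0 lower, among them Plk2 (0.23, adjusted p = 2.97e-08) and the cell cycle inhibitor Cdkn1a at 21.7, 23.7 and 24 CPM and 32.7, 27.4 and 27.3 CPM (0.33, adjusted p = 0.00268). The call for Cdkn1a was lost without Gel/Laponite replicate 1 (adjusted p = 0.102). Of the blood cell markers, the macrophage lysozyme Lyz2 was at 1.2, 0.899 and 0.783 CPM and at 1.67, 1.84 and 3.05 CPM (1.16, adjusted p = 0.0125), and it lost its call without Gel replicate 2 (adjusted p = 0.0597), Gel replicate 3 (0.0943) or Gel/Laponite replicate 3 (0.196).

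Gpr35, a G protein-coupled receptor, had the highest fold change of the DEGs that reached 5 CPM on average in Gel or Gel/Laponite without overlap. It was at 3.35, 3.66 and 3.52 CPM in Gel and at 6.32, 6.95 and 7.04 CPM in Gel/Laponite (0.94 ± 0.163, adjusted p = 1.39e-05). The lipocalin Apod rose from 5.5, 5.33 and 4.7 CPM to 8.36, 7.81 and 10.7 CPM (0.78 ± 0.141, adjusted p = 4.27e-05), the carboxylesterase Ces1a by 0.59 and the serine protease Prss22 by 0.50. On the lower side stood the chitinase-like Chil1, at 12.9, 12.3 and 13.8 CPM and 7.93, 7.01 and 10.2 CPM (-0.65 ± 0.117, adjusted p = 3.46e-05), and the aminopeptidase Anpep (CD13), at 25.6, 22.8 and 25.3 CPM and 16.4, 15.7 and 16.9 CPM (-0.59 ± 0.082, adjusted p = 4.31e-08). None of these ranges overlapped.

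**Figure D4:**
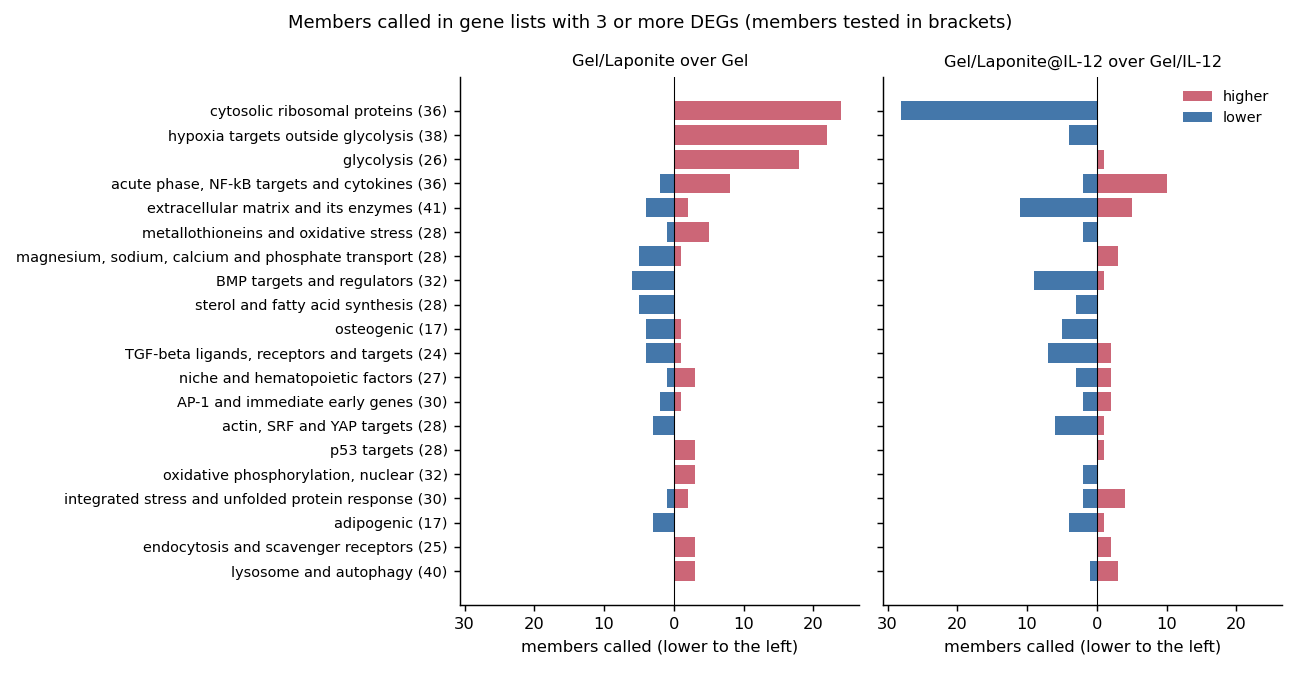
Bars give the number of members called higher (to the right) and lower (to the left) in each gene list with 3 or more DEGs, with the members tested in brackets. On the left, for Gel/Laponite over Gel, the hypoxia, glycolysis and ribosomal protein lists have 22, 18 and 24 members higher and 0 lower. On the right, with IL-12 in both gels, they have 0, 1 and 0 higher and 4, 0 and 28 lower. Over all genes 3.07% were higher and 2.32% lower on the left, and 2.15% and 2.19% on the right.

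The same nanoclay contrast was made in 6 other libraries that all held IL-12, Gel/Laponite@IL-12 against Gel/IL-12, and it shares no library with the first. It gave 659 DEGs (4.34%), 327 higher and 332 lower. Of the 467 genes that were higher with Laponite alone, 66 (14.1%) were called higher with IL-12 as well, where 2.15% of all genes were called higher, and 61 were called lower. Of the 352 lower genes, 68 (19.3%) were called lower with IL-12, where 2.19% of all genes were, and 9 were called higher. The 134 genes called in the same direction in both were 16.4% of the DEGs without IL-12 and 20.3% of those with it. The fold changes correlated with r = 0.60 across the 819 DEGs and 0.14 across all 15188 genes, as a description over genes, which are not independent.

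The difference between the 2 contrasts was tested by their interaction, which passed for 562 genes (3.7%), for 356 with the length and GC correction and for 0 in the edgeR fit with IR-Con. It uses the same Gel and Gel/Laponite libraries that chose the DEGs, and 207 of the higher and 79 of the lower DEGs passed it. Hypoxia targets and glycolysis genes were among them. With IL-12, 0 of 38 hypoxia targets were higher and 4 were lower, where 2.15% and 2.19% of all genes were. Of 26 glycolysis genes 1 was higher, and the medians of the 2 lists were 0.00 and 0.03. The interaction passed for 16 and 14 of them, all with a higher value without IL-12, where 2.29% of all genes passed that way and 1.41% the other way. Bnip3 was at 153, 149 and 152 CPM in Gel/IL-12 and at 143, 148 and 151 CPM in Gel/Laponite@IL-12 (log2 fold change -0.04, adjusted p = 0.623, interaction 0.68 ± 0.047, adjusted p = 9.38e-21). These levels lay between those of Gel, up to 114 CPM, and Gel/Laponite, from 172 CPM. Pgk1 was at 1593, 1568 and 1561 CPM and at 1499, 1575 and 1591 CPM, likewise between Gel and Gel/Laponite. Over all 38 hypoxia targets the median level relative to Gel was 0.21 in Gel/Laponite, 0.15 in Gel/Laponite@IL-12 and 0.14 in Gel/IL-12, values that share the Gel libraries.

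Ribosomal proteins turned their direction. With IL-12, 0 of 36 were higher and 28 were lower, where 2.15% and 2.19% of all genes were, with a median of -0.13. The interaction passed for 32, all with a higher value without IL-12, where 2.29% of all genes passed that way. The reference of this contrast, Gel/IL-12, already lay above Gel. Its median level over the 36 relative to Gel was 0.12, although it held no Laponite. Gel/Laponite reached a similar value (0.11), while the gel with both additions was close to Gel (0.01). These medians all use the Gel libraries, and the cause of the turn was not tested. Rpl11 was at 364, 369 and 373 CPM in Gel/IL-12 and at 324, 350 and 332 CPM in Gel/Laponite@IL-12 (-0.14 ± 0.027, adjusted p = 7.49e-05). The trend with transcript length turned as well, since the medians with IL-12 were -0.026 in the shortest and 0.016 in the longest quartile. Of 30 interferon genes 21 were higher in Gel/Laponite@IL-12 than in Gel/IL-12, where 2.15% of all genes were. Without IL-12 it was 2 of 30. The interaction passed for 13, with a smaller difference without IL-12 for 12 of them. Of all genes, 1.41% passed in that direction and 2.29% in the other.

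BMP targets, Cyp1a1 and several inflammatory genes moved the same way in both contrasts. With IL-12, 9 of 32 BMP genes were lower and 1 was higher, where 2.19% and 2.15% of all genes were. Id3 was at 121, 119 and 117 CPM in Gel/IL-12 and at 73.7, 75.9 and 73.9 CPM in Gel/Laponite@IL-12 (-0.68 ± 0.038, adjusted p = 3.61e-27). Its fall was larger than without IL-12 (interaction 0.26, adjusted p = 0.000738), as were those of Id1 (-0.87, interaction adjusted p = 0.00769) and Id2 (-0.87, interaction adjusted p = 0.000204). Atoh8 was at 14.1, 17.5 and 17.4 CPM and at 9.79, 9.7 and 10.4 CPM (-0.72, adjusted p = 7.6e-08), and no difference between the contrasts was detected for it (interaction -0.08, adjusted p = 0.873). Cyp1a1 was at 4.4, 4.54 and 4.93 CPM and at 1.12, 1.02 and 1.36 CPM (-1.99 ± 0.234, adjusted p = 2.22e-10). Of the 7 aryl hydrocarbon receptor genes tested, a list chosen after values were seen, 5 were lower with IL-12, where 2.19% of all genes were. C3 rose by 0.32 (adjusted p = 8.21e-24), Steap4 by 0.65 (adjusted p = 1.41e-17) and Tgfbr2 by 0.32 (adjusted p = 6.13e-20). Apod rose by 0.73 and Ces1a by 1.08, while Gpr35 had a value of 0.25 that did not pass the test (adjusted p = 0.486).

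**Figure D5:**
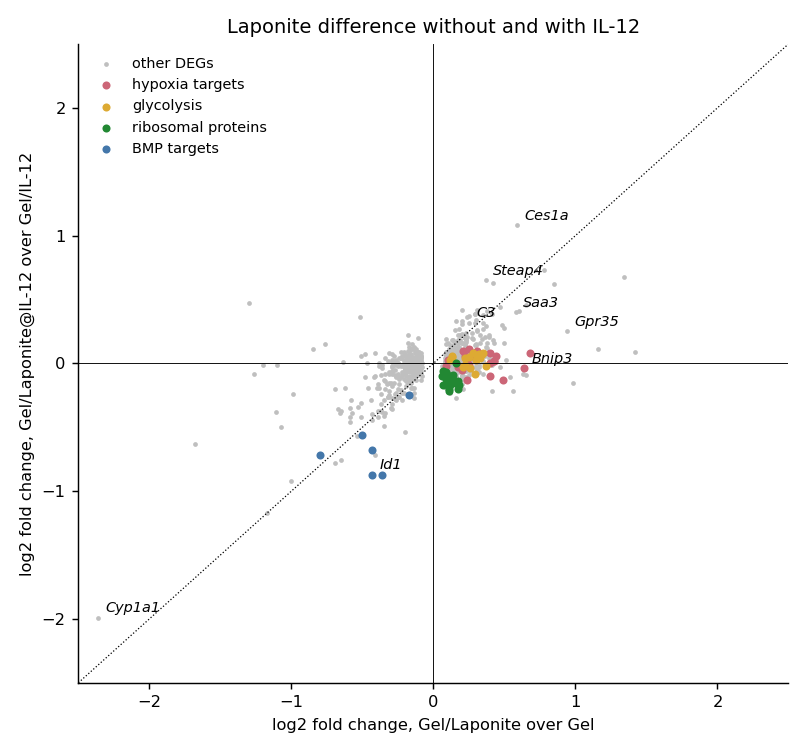
Each point is 1 of the 819 DEGs, less 1 beyond 2.5, with its log2 fold change of Gel/Laponite over Gel on the x axis and of Gel/Laponite@IL-12 over Gel/IL-12 on the y axis, and the dotted line marks equal values. BMP targets lie on the lower left with values down to -0.87 with IL-12, most hypoxia and glycolysis genes lie near 0 on the y axis, and most ribosomal proteins lie below 0.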

How the data were processed

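RNA of irradiated mouse BM-MSCs was sequenced by a company on the HiSeq platform, and the labels name the build mm10 (GRCm38). The authors deposited whole-number read counts per gene. The aligner, counter and strand setting are not given in the sources used here. Their table also holds 15 FPKM columns, 20 group-mean columns and the fold changes and p-values of 10 comparisons, which were not used. Members and gene lists were chosen with earlier results of these data known.

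Counts of the 12 gel libraries were filtered (filterByExpr, minimum count 10), scaled by TMM and tested by the quasi-likelihood test of edgeR 4.0.16 (R 4.3.3, limma 3.58.1) with Benjamini-Hochberg adjustment over 15188 genes, two-sided, at 0.05 and with 8 residual degrees of freedom. Values after ± are SE for log2 fold changes, derived as the size of the fold change over the square root of the F statistic. Genes with a similar ratio of fold change to SE can therefore differ in adjusted p. The test was checked on simulated counts. CPM were computed from the counts with TMM scaling. Depth differed little between libraries, so precision depends mainly on a gene's level. DESeq2 1.42.0, voom, other filters, other scalings, a replicate block and each library left out were alternatives. A correction for transcript length and GC content was added after seeing the data.

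Genes were named by a rule: the 15 highest and 15 lowest DEGs of at least 5 CPM without overlap, up to 5 DEGs per list by adjusted p, the 10 most abundant DEGs, Higd1a, Bnip3, Atoh8, Lcn2, Saa3 and DEGs of the interaction. Not all of these are described. Ahr, Ccl2, Cp, Cxcl1, Cyp1a1, Cyp1b1, Gbe1, Hif1a, Malat1, Nqo1, Plod2, Runx2, Serpina3n, Smad7 and Tiparp fall outside it and were chosen after their values were seen. Coordinates are those of GENCODE M21, matched by gene ID. Results for a few genes are not reported here.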

Additional observations from a re-analysis of the deposited data

Results flagged for a closer look

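For 40 genes named above, the Laponite difference was not the same with and without IL-12, by the interaction test of edgeR at an adjusted p under 0.05. Passing this test was itself a ground for naming a gene, so their number follows in part from that choice. Each value is the log2 difference without IL-12 minus that with IL-12, and it uses the Gel and Gel/Laponite libraries that also gave the DEGs. Among hypoxia genes it was 0.68 for Bnip3, 0.60 for Higd1a, 0.49 for Ak4, 0.48 for Ndufa4l2, 0.41 for Ndrg1 and Fam162a, 0.39 for Ero1l and Pdk1, 0.37 for Bhlhe40, 0.32 for Egln1, 0.21 for Bnip3l and Angptl4 and 0.16 for P4ha1. Of these genes Bhlhe40 was called in the opposite direction with IL-12 (-0.13, adjusted p = 0.00474).

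Among glycolysis genes it was 0.39 for Pgk1, 0.31 for Slc2a1, 0.29 for Ldha, 0.28 for Tpi1, 0.27 for Pfkl and Slc16a3, 0.20 for Pgam1, 0.19 for Aldoa, 0.18 for Eno1 and 0.09 for Pkm. For ribosomal proteins and translation genes it was 0.31 for Rpl11, 0.26 for Rpl10, 0.24 for Tpt1, 0.23 for Rpl5, 0.16 for Rplp2 and 0.14 for Eef1a1.

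Genes that fell more with IL-12 were Id2 at 0.52, Id1 at 0.44, Id3 at 0.26 and Dlk1 at 0.14. The value was 0.33 for Mt1, 0.20 for Lcn2, 0.15 for Hmox1 and 0.12 for B2m, which passed the test without IL-12 and not with it. It was -0.27 for Steap4, which rose more with IL-12, and -0.19 for Piezo1 and -0.17 for Vcan, which were called lower without IL-12.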

How the results depend on the processing

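The count of DEGs in Gel/Laponite over Gel (819) was 605 to 842 with DESeq2, voom, RLE size factors, no filter, a filter of 1 CPM, only the 6 libraries of the comparison or the length and GC correction. With IR-Con in the fit it was 51, that with IL-12 (659) was 47 and that of the interaction (562) was 0, though 631 genes had an unadjusted p under 0.05 there. Without IR-Con, 509 genes passed the interaction in DESeq2 and 555 in voom, and the length and GC correction 356. When any library was left out, the counts were 522 to 872, 449 to 686 and 375 to 666. Replicate numbers did not pair the libraries, since same-numbered Gel and Gel/Laponite libraries correlated at 0.024, -0.008 and -0.008 and those with IL-12 at -0.167, -0.055 and -0.016, and not every sample correlated best with its own number. The replicate block gave 812, 659 and 561 DEGs. The 86 named genes include Ahr, Hif1a, Malat1, Nqo1, Runx2, Smad7 and Tiparp, which had no call to lose. Of the rest, 49 lost their call with IR-Con in the fit and 5 with the length and GC correction. With voom it was 1, and when a library was left out it was up to 4. None of the 86 turned its direction in these alternatives. Tiparp passed the test with the length and GC correction. The cause of these changes was not tested. Low genes are limited by depth, and 23 DEGs had a mean under 5 CPM.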
